A study of Rattus norvegicus with 11 samples.

Results

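Cryab and Hspb1, which encode a pair of small heat shock proteins, were followed across all 11 retinal libraries of the series. They were chosen by identifier, Cryab as ENSRNOG00000010524 and Hspb1 as ENSRNOG00000023546, and not by their measured values. Both rows were present in the deposited gene count table and in the normalized table, and make up 2 of the 12037 genes listed. The retinas came from 3 groups of female rats, with 1 library per animal. The P23H groups were hemizygous for a transgene of mutant rhodopsin (P23H line 1, strain label P23HxLE, bred to Long Evans), a model in which rods degenerate, and both eyes of each animal received 5 µL into the vitreous. Of these P23H rats, 5 belonged to the DMSO group, DMSO being the solvent, and 4 to the halofantrine group, halofantrine being an antimalarial drug. The labels give a range of 20 to 100 µM for the injections and do not state which dose these retinas received, nor the ages of the animals. The paper describes repeated intravitreal injections in its P23H rats, without giving their number for the sequenced retinas. The other 2 rats were wild type of the strain cross SDxLE and were untreated. Genotype, strain cross and injection therefore cannot be told apart in any comparison with wild type. The closing letter of the sample titles, which the labels do not explain, also follows genotype: R in every P23H library and L in wild type.

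Small heat shock proteins are ATP-independent chaperones: they form large oligomers, bind partly unfolded proteins and hold them in a soluble state until ATP-driven chaperones refold them or they are degraded. Cryab, or alpha B-crystallin, is a structural protein of the lens and is also made in muscle, in glia and in the retina. Hspb1, known as Hsp27 in human cells and Hsp25 in rodents, binds actin and intermediate filaments as well as client proteins, is phosphorylated by kinases of the p38 pathway, and is a target of heat shock factor 1, which binds heat shock elements made of inverted GAA repeats.

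Such repeats are shown here for Hspb1 because the gene is a textbook heat shock factor target and varied widely between the P23H animals. The stretch runs from 150 to 91 bases before the annotated start of Hspb1 (RefSeq, GRCr8, chr12:26432392-26432451, minus strand), and capitals mark the matches to GAANNTTC, a motif that reads the same on both strands.
Hspb1 upstream: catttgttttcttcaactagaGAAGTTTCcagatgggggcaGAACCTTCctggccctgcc
The matches begin 129 and 109 bases before the start. In windows of 300 bases around gene starts, at least 1 match was present in 8.59% of 33469 promoters, and 2 or more in 0.517%. The mirrored motif TTCNNGAA, also the same on both strands and able to share an end with the first, was absent from the Hspb1 window and present in 8.77% of all windows. Of the 10 genes of the small heat shock family, 7 had a window in the table, and GAANNTTC was found in those of Hspb1, Hspb6 and Hspb8. Cryab had no entry. A match is a string of letters and was not measured as a binding site in these retinas. Whether heat shock factors had a part in the variation of Hspb1 was not tested.

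Depth ranged from 11685202 to 34198536 estimated counts per library. One library stood apart in expression over all genes. The mean correlation of log2 CPM with the other libraries of its group was 0.83 for DMSO replicate 3, against 0.933 to 0.943 for the remaining DMSO libraries. In the halofantrine group, replicate 1 was the least like the rest, at 0.932 against 0.961 to 0.967. The results below are therefore also given without these libraries. The deposited identifiers are paired with no symbols, so the retinal origin of the RNA and the presence of lens, glial or muscle transcripts could not be checked by marker genes. For the same reason the other genes of the heat shock response were not analysed here.

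Cryab was readily detected in every retina, and its level differed more between animals with DMSO and in wild type than with halofantrine. Levels are given as CPM, counts relative to library size scaled by TMM factors. In the untreated wild-type retinas Cryab was at 276 CPM in replicate 1 and 97.9 CPM in replicate 2, from 4672 and 1183 counts. In the DMSO group it was at 303, 84.9, 534, 56.6 and 117 CPM in replicates 1 to 5. In the halofantrine group it was at 77.6, 71.3, 80.1 and 124 CPM in replicates 1 to 4. DMSO replicates 1 and 3 and wild-type replicate 1 were high, and all other libraries, whatever their group, lay between 56.6 and 124 CPM. All 3 groups overlapped. Means were 187 ± 126 CPM in wild type (SD, n = 2), 219 ± 201 CPM with DMSO (SD, n = 5) and 88.3 ± 24.3 CPM with halofantrine (SD, n = 4). The medians of the P23H groups were nearer to each other, at 117 and 78.9 CPM. Against the genes tested in the same library, the CPM of Cryab exceeded that of 63.1% in DMSO replicate 4 and of 98.6% in DMSO replicate 3. The filter on low counts removed 6 of 12037 listed genes, so these are percentages of expressed genes and not of the whole genome.

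Hspb1 was scarce in wild-type retina and was higher in most, though not all, P23H retinas. It was at 2.12 and 1.82 CPM in wild-type replicates 1 and 2, from 36 and 22 counts. In the DMSO group it was at 16.8, 2.01, 64.2, 6.62 and 9.20 CPM in replicates 1 to 5. In the halofantrine group it was at 14.6, 6.61, 5.16 and 6.11 CPM in replicates 1 to 4. The 4 halofantrine libraries were all above both wild-type libraries. With DMSO, 4 of 5 libraries were above both, and replicate 2, with 45 counts and a 95% counting interval of 1.47 to 2.69 CPM, lay between them. The DMSO and halofantrine groups overlapped. Means were 1.97 ± 0.214 CPM in wild type (SD, n = 2), 19.8 ± 25.4 CPM with DMSO (SD, n = 5) and 8.13 ± 4.38 CPM with halofantrine (SD, n = 4). The DMSO mean of Hspb1 was set largely by replicate 3. As for Cryab, the medians of the P23H groups, at 9.20 and 6.36 CPM, were closer. Among the expressed genes tested, only 0.457% had a lower CPM than Hspb1 in DMSO replicate 2, whereas 64.2% did in DMSO replicate 3.

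**Figure D1:**
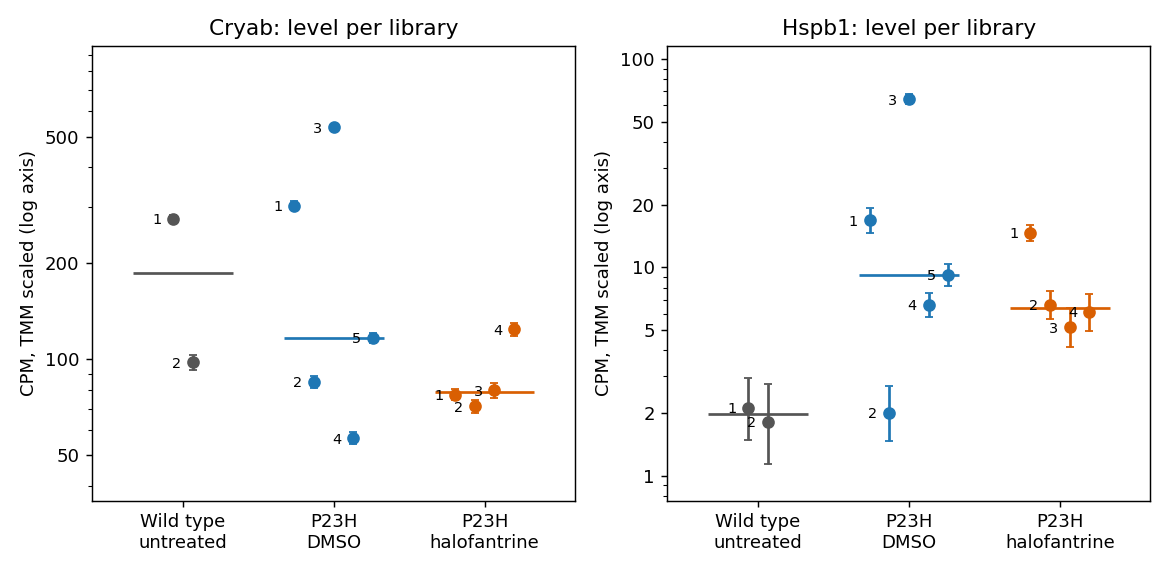
Level of Cryab (left) and Hspb1 (right) in each library, in TMM-scaled CPM on a log axis, by group; numbers beside the points are replicates, bars are 95% exact Poisson counting intervals and horizontal lines are group medians. For Cryab the groups overlap and DMSO replicate 3 is highest at 534 CPM, while for Hspb1 the wild-type libraries lie at 2.12 and 1.82 CPM and 8 of 9 P23H libraries lie above them.

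The spread between animals was large for both genes when set against the other genes tested, which were expressed genes. For Cryab, the SD of log2 CPM between the 2 wild-type animals was 1.06, against a median of 0.0706 over all genes, and only 27 of 12031 genes (0.224%) differed more. The counting intervals of these libraries, 268 to 284 and 92.4 to 104 CPM, did not overlap, so the difference of 2.82-fold exceeded counting error. With DMSO the SD of Cryab was 1.34, exceeded by 2.17% of genes, and with halofantrine it was 0.359, exceeded by 17.7%. Thus Cryab ranged 9.44-fold among the DMSO animals and 1.74-fold among the halofantrine animals.

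Hspb1 showed another pattern. Its SD was 0.150 between the wild-type animals, a value that 18.7% of genes exceeded, 1.81 with DMSO, exceeded by 1.08%, and 0.662 with halofantrine, exceeded by 3.00%. From the lowest to the highest library it ranged 31.9-fold with DMSO and 2.84-fold with halofantrine. The median SD over all genes was similar in the P23H groups, at 0.214 with DMSO and 0.210 with halofantrine. The difference in spread of Cryab or Hspb1 between the treatments was not tested. In the fit over all groups, the biological coefficient of variation was 0.602 for Cryab and 0.773 for Hspb1, against a median of 0.182.

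**Figure D2:**
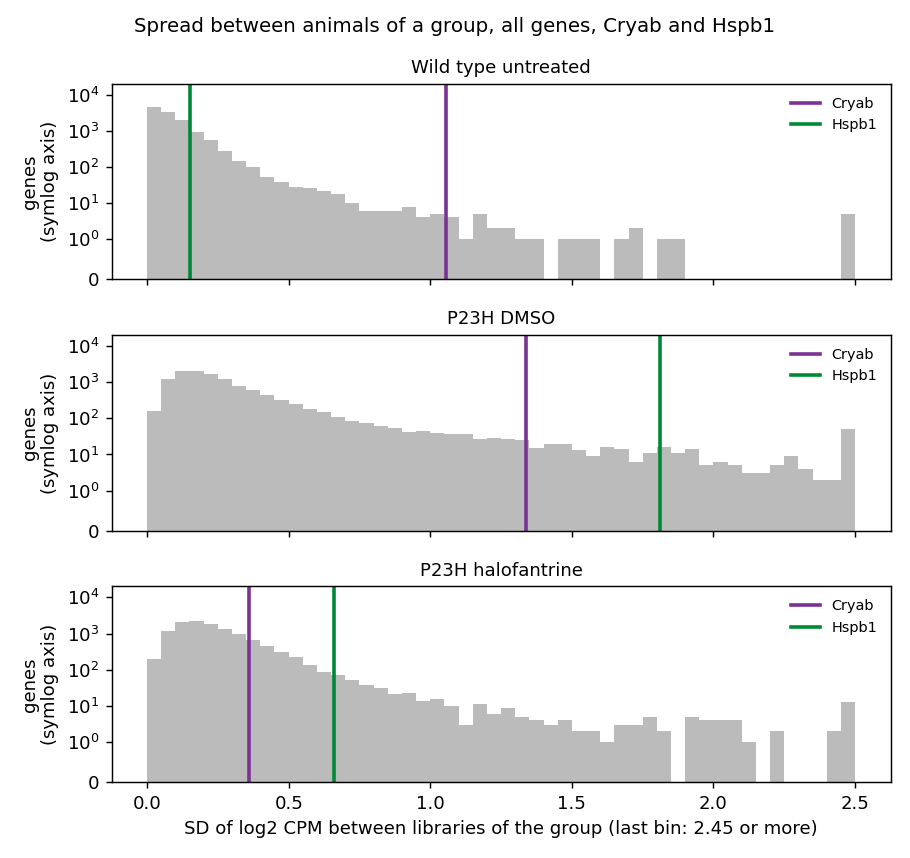
Number of genes (vertical axis, symlog) by the SD of their log2 CPM between the libraries of a group, for each of the 3 groups, with the SD of Cryab and of Hspb1 as vertical lines. Cryab lies in the far tail in wild type at 1.06, and with DMSO both genes do, at 1.34 and 1.81; with halofantrine they lie at 0.359 and 0.662.

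Single animals carried much of this spread. Each fold in this paragraph compares the log2 CPM of a library with the mean log2 CPM of the others in its group. It is not a ratio to their mean CPM. On this scale DMSO replicate 3 lay 4.67-fold above the other DMSO libraries for Cryab and 9.36-fold for Hspb1. In that library 408 genes were further above their group than Cryab (3.39%) and 182 were further above than Hspb1 (1.51%). DMSO replicate 1, which did not stand apart over all genes, lay 2.30-fold above the others for Cryab and 1.76-fold for Hspb1. In it, 48 (0.399%) and 105 (0.873%) genes were further up. These others included DMSO replicate 3, at 64.2 CPM of Hspb1 against 16.8 CPM in replicate 1. Halofantrine replicate 1 exceeded its group 2.45-fold for Hspb1, with 205 genes further up (1.70%), but not for Cryab, where it was at 77.6 CPM. The highest libraries were DMSO replicates 3 and 1 for both genes, and next came wild-type replicate 1 for Cryab and halofantrine replicate 1 for Hspb1.

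Whether halofantrine changed the expression of these genes in P23H retina was tested by the quasi-likelihood F test of edgeR, with adjustment over all genes. Neither gene passed, 0 of 2, and only 1 of all genes tested did (0.00831%). For Cryab the log2 fold change of halofantrine against DMSO was -1.31 (SE 0.622, 95% interval -2.68 to 0.06, unadjusted p = 0.0593, edgeR adjusted p = 0.465). For Hspb1 it was -1.27 (SE 0.806, 95% interval -3.05 to 0.51, unadjusted p = 0.144, edgeR adjusted p = 0.565). The difference in mean log2 CPM was smaller, at -0.85 for Cryab and -0.51 for Hspb1. Exact two-sided permutation tests of this difference over the 126 arrangements gave p = 0.317 for Cryab and p = 0.587 for Hspb1. Both genes overlapped between the treatments, like all but 2.97% of genes. In bulk RNA, fewer cells of a type and less RNA per cell cannot be told apart. Animal numbers of the P23H groups lie in separate ranges, so a difference between cohorts, if any, cannot be told apart from treatment.

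The estimate for Hspb1 depended on a single library. Without DMSO replicate 3 the log2 fold change of halofantrine against DMSO was -0.03 for Hspb1 (edgeR adjusted p = 0.986), while that of Cryab was -0.64 (edgeR adjusted p = 0.576). With halofantrine replicate 1 left out as well, the values were -0.47 and -0.57 (edgeR adjusted p = 0.640 and 0.589). The method mattered too: with every library kept, limma-voom gave -0.91 for Cryab and -0.10 for Hspb1, and with sample weights -0.25 and -0.18. The edgeR intervals with all libraries span no change as well as large decreases, so a lack of effect was not shown either.

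The P23H groups were then compared with wild type to ask how the genes differed in the degenerating retina. These comparisons share the wild-type libraries and are not independent of each other. For Hspb1 the log2 fold change of DMSO against wild type was 3.31 (SE 1.23, 95% interval 0.61 to 6.02), or 9.95-fold. Its unadjusted p was 0.0209, and its edgeR adjusted p of 0.0765 missed the threshold of 0.05. For halofantrine against wild type the log2 fold change of Hspb1 was 2.04 (SE 1.17, 95% interval -0.55 to 4.63, edgeR adjusted p = 0.252). Among all genes, 21.2% passed for DMSO and 13.1% for halofantrine against wild type. All halofantrine libraries lay above both wild-type libraries for Hspb1, a lack of overlap seen for 48.6% of genes, and the DMSO libraries did not, although 50.8% of genes were without overlap there.

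The call on Hspb1 against wild type changed with the processing. Without DMSO replicate 3 and halofantrine replicate 1, the log2 fold change of DMSO against wild type was lower, at 2.01, but its edgeR adjusted p was 0.0336. DESeq2 gave 3.32 with an adjusted p of 0.00226. More of all genes passed in these fits, 5387 without the pair of libraries and 3400 with DESeq2, against 2548 in edgeR with all libraries. The adjusted p was higher under other choices, at 0.686 with limma-voom (log2 fold change 2.18), and 0.286 or 0.322 in edgeR without wild-type replicate 1 or 2. With DMSO replicate 3 alone left out it was 2.02 (edgeR adjusted p = 0.0606). Mean log2 CPM of Hspb1 differed from wild type by 2.38 with DMSO and by 1.87 with halofantrine. Exact two-sided permutation tests of these differences gave p = 0.190 and p = 0.133. The smallest attainable values were 0.0952 and 0.133, so these tests could not reach 0.05.

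Cryab gave no direction in DMSO against wild type. Its log2 fold change was 0.23 (SE 0.760, 95% interval -1.45 to 1.90, edgeR adjusted p = 0.850), and it became -0.49 without DMSO replicate 3 (edgeR adjusted p = 0.538). Of the DMSO libraries, 2 were above and 2 were below both wild-type libraries. For halofantrine against wild type the log2 fold change of Cryab was -1.08 (SE 0.755, 95% interval -2.75 to 0.58, edgeR adjusted p = 0.340), and 3 of 4 libraries were below both wild-type libraries. That value rested on which wild-type animal was used: it was -0.18 without replicate 1 (edgeR adjusted p = 0.935) and -1.65 without replicate 2 (edgeR adjusted p = 0.395). Mean log2 CPM of Cryab differed from wild type by -0.08 with DMSO and by -0.93 with halofantrine. By exact two-sided permutation tests of these differences, p was 1 for DMSO and 0.267 for halofantrine. So 0 of 2 genes passed in either comparison with wild type in the fit of all libraries.

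**Figure D3:**
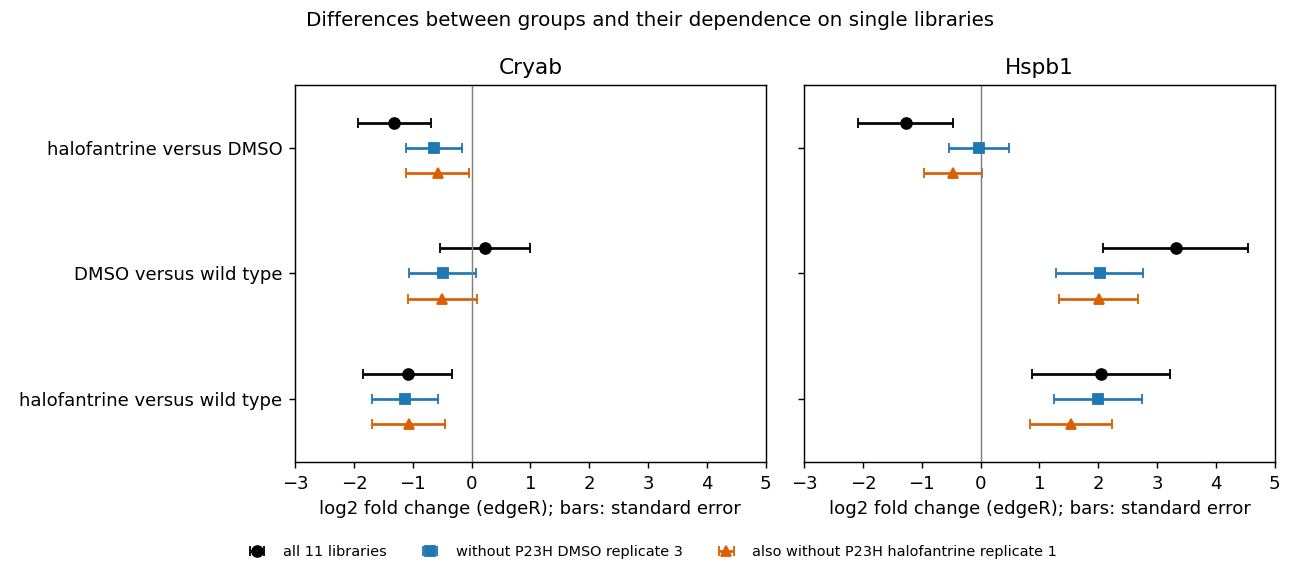
Log2 fold changes of Cryab (left) and Hspb1 (right) from edgeR in the 3 comparisons, with bars of 1 standard error, for all 11 libraries, without DMSO replicate 3, and also without halofantrine replicate 1. Hspb1 in halofantrine against DMSO moves from -1.27 to -0.03 without DMSO replicate 3, and Cryab in DMSO against wild type moves from 0.23 to -0.49, while Hspb1 stays above 0 in both comparisons with wild type.

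The balance between the genes within a library was also measured, since a ratio of counts does not depend on the scaling between libraries. The number itself depends on transcript length, so only its differences between libraries are described. The ratio of Cryab to Hspb1 counts, with 0.5 added to each, was 128 and 52.6 in wild-type replicates 1 and 2. It was 18.0, 41.8, 8.33, 8.53 and 12.7 in DMSO replicates 1 to 5, and 5.30, 10.7, 15.4 and 20.2 in halofantrine replicates 1 to 4. All 9 P23H libraries were below both wild-type libraries, and the P23H groups overlapped. The nearest pair was not separated by more than counting error, with exact binomial 95% intervals of 31.5 to 58.1 for DMSO replicate 2 and 35.3 to 86.1 for wild-type replicate 2. A lack of overlap with wild type was also common among single genes, at 50.8% for DMSO and 48.6% for halofantrine. The mean log2 ratio was 6.36 ± 0.907 in wild type (SD, n = 2), 3.87 ± 0.961 with DMSO (SD, n = 5) and 3.53 ± 0.838 with halofantrine (SD, n = 4).

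Relative to wild type, the ratio differed by -2.48 on the log2 scale with DMSO (exact two-sided permutation p = 0.0952) and by -2.83 with halofantrine (exact two-sided permutation p = 0.133). Both p-values are the smallest these group sizes allow. Halofantrine and DMSO differed by -0.34 (exact two-sided permutation p = 0.603), and this small difference changed sign, to 0.03, when DMSO replicate 2 or halofantrine replicate 1 was left out. Without DMSO replicate 3 and halofantrine replicate 1, the log2 ratio differed by -2.28 for DMSO and -2.45 for halofantrine against wild type, and by -0.17 between the treatments. The ratio is not a separate measurement and carries the differences already given for each gene. Against wild type, mean log2 CPM differed by 2.38 (DMSO) and 1.87 (halofantrine) for Hspb1, and by -0.08 and -0.93 for Cryab.

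Across the 9 P23H libraries the levels of Cryab and Hspb1 were correlated, and the correlation depended on which animals were included. Pearson's r of log2 CPM was 0.78 (exact permutation p = 0.0133) and Spearman's rho was 0.40 (exact permutation p = 0.291), for this single relation. After removal of the 2 libraries farthest from the median of Cryab, DMSO replicates 1 and 3, r was 0.02 (exact permutation p = 0.974), a removal that also narrows the range of Cryab. Without DMSO replicate 3 and halofantrine replicate 1, which were the least like their groups over all genes, r was 0.63 (exact permutation p = 0.149). Taken as deviations from the group means, r was 0.78 (exact permutation p = 0.0583). The wild-type libraries, with Cryab at 276 and 97.9 CPM and Hspb1 near 2 CPM in both, were kept out of this correlation.

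**Figure D4:**
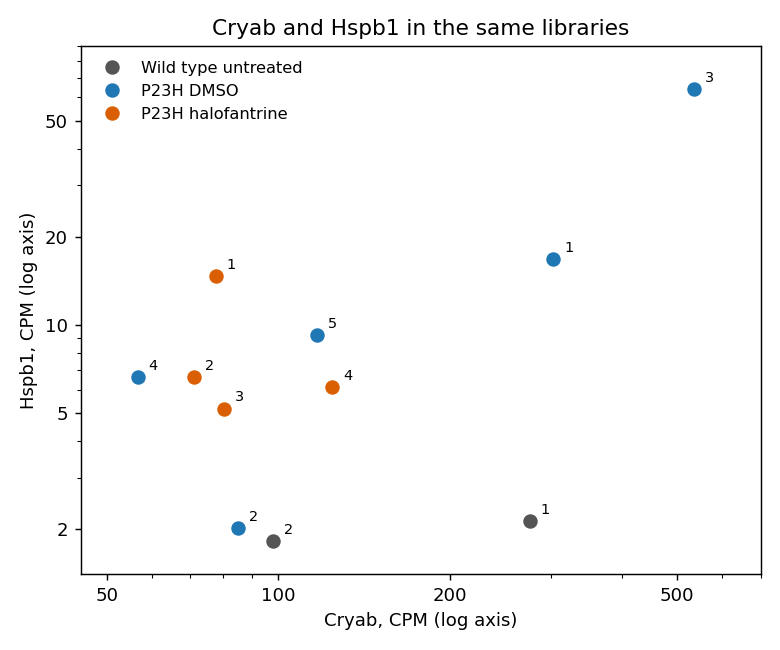
Hspb1 against Cryab in each of the 11 libraries, both in TMM-scaled CPM on log axes, coloured by group and numbered by replicate. DMSO replicates 1 and 3 lie at the upper right, the other P23H libraries lie between 56.6 and 124 CPM of Cryab and 2.01 and 14.6 CPM of Hspb1, and wild-type replicate 1 has Cryab at 276 CPM with Hspb1 at 2.12 CPM.

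Over all 11 libraries, Cryab and Hspb1 were not among the genes most like each other. Pearson's r of their log2 CPM was 0.49, which placed Hspb1 at position 886 for Cryab and Cryab at position 2745 for Hspb1 among 12030 genes. Of the 100 genes most like each, 1 was shared, and the overlap of unrelated lists of this length was not computed. These correlations are descriptions over libraries that differ in group and depth. The files give no symbols for the genes closest to either.

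The gene most like Cryab was ENSRNOG00000001251 (r = 0.94). It was at 48.7 and 14.0 CPM in wild-type replicates 1 and 2, at 84.3, 5.18, 70.3, 3.99 and 17.9 CPM in DMSO replicates 1 to 5, and at 4.36, 6.85, 3.62 and 13.8 CPM in halofantrine replicates 1 to 4. It was thus high in the same 3 libraries as Cryab, and over a wider range. The next, ENSRNOG00000008847 (r = 0.93), was at 5.02 and 4.85 CPM in DMSO replicates 1 and 3, at 1.42 CPM in wild-type replicate 1, and below 1 CPM in every other library. What these genes encode was not resolved here, and whether cells from outside the retina had a part in the Cryab levels was not tested.

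For Hspb1 the closest gene was ENSRNOG00000049782 (r = 0.96). It was at 2.54 and 1.99 CPM in wild type, at 7.61, 2.86, 31.8, 4.51 and 5.57 CPM in DMSO replicates 1 to 5, and at 7.20, 7.40, 4.39 and 3.85 CPM in halofantrine replicates 1 to 4. DMSO replicate 3 was the highest library for this gene as it was for Hspb1, and wild-type replicate 2 was the lowest for both. The second, ENSRNOG00000016512 (r = 0.95), was at 21.1 CPM in DMSO replicate 3 and at 11.3 CPM in halofantrine replicate 1, its highest values, and at 2.48 and 3.23 CPM in wild type.

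The counts of each gene equalled those of a single listed transcript. In every library the gene count equalled that of ENSRNOT00000059127.5 for Cryab and of ENSRNOT00000031555.7 for Hspb1, within 0.02 counts, and all 11 values of each were whole numbers. Counts were exactly whole, as written in the table, in all libraries for 64.4% of genes. The transcripts were found by this equality among 95472 listed transcripts, with 1 match for each gene, and not from an annotation. The equality is therefore no separate result, and whether other isoforms of these genes are listed was not checked. The whole counts gave no sign of reads shared with other listed transcripts.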

How the data were processed

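RNA-seq was performed by the authors on polyadenylated RNA of rat retina with stranded libraries. Per the study's methods, reads were aligned to the Ensembl version 115 rat transcriptome with kallisto and summed to genes with tximport. The deposited gene and transcript tables hold estimated counts, without scaling for depth. A further deposited table holds a normalized signal, equal to these counts divided by 1 constant per library. A deposited table of the authors' own comparison, with fold changes and p-values, was not used.

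Groups were taken from the sample labels (wild type n = 2, DMSO n = 5, halofantrine n = 4), with replicates numbered in order of deposition. Animal numbers of the P23H groups lie in separate ranges, and no batch or date is given. The p-values set group differences against the spread between these animals. They cannot tell treatment from a difference between cohorts, if the groups were separate cohorts. Counts were rounded. The filterByExpr rule removed 6 of 12037 genes, and 12031 were tested in edgeR 4.0.16 (R 4.3.3) by its quasi-likelihood F test, with TMM factors, all 11 libraries in a single fit, and Benjamini-Hochberg adjustment over all genes at a threshold of 0.05. The test was checked on simulated counts drawn independently for each library, with none outlying as DMSO replicate 3 was. That check does not cover such a library. Standard errors of edgeR log2 fold changes were back-calculated as the absolute log2 fold change over the square root of F. The 95% intervals were built from them. Log2 CPM used a prior count of 2. Exact permutation tests used scipy 1.17.1. Likeness was Pearson's r over 11 libraries among genes with a mean of 1 CPM or more, and the first 2 genes for each are named. Intervals of single levels are exact Poisson intervals at 95% and cover counting error only.

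Alternatives were other scalings (RLE, upper quartile, plain totals), no filter, unrounded counts, DESeq2 1.42.0, limma-voom (limma 3.58.1) with and without sample weights, limma on the authors' normalized signal with a pseudocount of 1 or 0.1, the P23H libraries alone, and libraries left out. The genes, lists and tests were chosen with earlier results of these data known. Lists of other heat shock genes and of cell type markers could not be analysed, as 0 of 47357 entries of the RefSeq gene table carry an Ensembl identifier. The names Cryab and Hspb1 are those given with the identifiers for this work.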

Additional observations from a re-analysis of the deposited data

Results flagged for a closer look

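In each P23H group the gap of the highest and the lowest library to its neighbour, relative to the range of the group, was examined for both genes in CPM and for their log2 ratio. Of these 6 sets of values, 3 held a library farther out than Dixon's 95% critical value, which chance passes in about 5% of sets when values are normally distributed. CPM values are skewed upward, and 0 of the 3 passed on log2 CPM, where the gaps were 0.391, 0.763 and 0.789 of the range for the libraries in the order given next. Hspb1 in DMSO replicate 3 was at 64.2 CPM, with the other DMSO libraries between 2.01 and 16.8 CPM. Hspb1 in halofantrine replicate 1 was at 14.6 CPM, with the others between 5.16 and 6.61 CPM. Cryab in halofantrine replicate 4 was at 124 CPM, just past the critical value, with the others between 71.3 and 80.1 CPM. The wild-type pair was too small to be examined in this way.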

How the results depend on the processing

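Of 164 results under alternatives, 149 kept their direction and their side of the threshold. The side was judged by adjusted p for single genes, and by unadjusted permutation p for the ratio and the correlation. For the ratio against wild type, the group sizes kept the permutation p above the threshold in every setting. Only the direction of those results could have changed, so their side of the threshold is no sign of stability. For Cryab in DMSO against wild type the log2 fold change turned to -0.00418 with limma-voom, -0.60 with limma-voom and sample weights, -0.12 and -0.13 on the authors' normalized signal with pseudocounts of 1 and 0.1, and -0.50 without both DMSO replicate 3 and halofantrine replicate 1; with single libraries left out it ranged from -0.49 to 1.12, below 0 without DMSO replicate 3 (-0.49) or wild-type replicate 2 (-0.35). For Hspb1 in DMSO against wild type the threshold was passed with DESeq2 (3.32), with limma-voom and sample weights (1.84, adjusted p = 0.0448), and without the same pair of libraries (2.01); with single libraries left out it ranged from 2.02 to 3.56, passing only without DMSO replicate 2 (adjusted p = 0.0343). Its adjusted p ranged from 0.00226 to 0.686 over the alternatives other than single libraries left out. The ratio of Cryab to Hspb1 in halofantrine against DMSO ranged from -0.61 to 0.03 with single libraries left out, turning to 0.0333 without DMSO replicate 2 and 0.0302 without halofantrine replicate 1. The correlation of Cryab with Hspb1 lost its threshold as deviations from group means (0.782) and without that pair (0.632). The cause of these changes was not tested.

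Single libraries left out moved halofantrine against DMSO from -1.56 to -0.64 for Cryab and from -1.73 to -0.03 for Hspb1, and with every library kept it was -0.25 for Cryab with sample weights and -0.84 and -0.85 on the normalized signal, and -0.10, -0.18, -0.52 and -0.50 for Hspb1 with limma-voom, sample weights, and the normalized signal at both pseudocounts. Against wild type they moved halofantrine from -1.65 to -0.18 for Cryab and from 1.54 to 2.21 for Hspb1. Counts over all genes were unstable: 0 to 742 genes passed for halofantrine against DMSO (1 in the fit of all libraries), 519 to 7207 for DMSO against wild type (2548), and 211 to 6622 for halofantrine against wild type (1580), with the highest counts under sample weights. No paired analysis was possible because the labels carry animal numbers that no groups share. Depth limits Hspb1 in wild type, where it rests on 36 and 22 counts, and the small wild-type group limits every comparison with it.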
